A study of Rattus norvegicus with 141 samples.

Results

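The libraries described here are the liver libraries at both ends of the range of ribosomal protein transcript share, which is the percentage of a library's total estimated count that came from genes of ribosomal proteins. The share was computed in all 46 liver libraries, and the 6 highest and the 6 lowest were taken among the males and again among the females. This gave 12 high-share and 12 low-share libraries and left 22 libraries in neither class, out of 141 libraries in the series. The animals were adult wild-type rats of the Sprague-Dawley strain, male and female, on standard chow, and each liver library belonged to 1 of 6 groups of males or females given vehicle, microplastics at 5 mg/kg or microplastics at 50 mg/kg. Polyadenylated RNA had been sequenced from liver, stomach and duodenum. The labels put each library in batch 1, 2 or 3 without saying what a batch was, and nothing in them ties a library to an animal of its own; p-values therefore measure only the spread between samples, which may be technical.

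Ribosomal proteins form the small and large ribosomal subunits together with ribosomal RNA. Their mRNAs, and those of many translation factors, usually begin with a cytosine and a run of pyrimidines at the cap, the 5′ terminal oligopyrimidine (TOP) motif, through which mTOR signalling sets their translation and stability. Hepatocytes make most plasma proteins and so carry a large translation machinery.

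A tract of this kind stands at the annotated starts of some of these genes in RefSeq (build GRCr8). The following lines give 20 bases before and the first 20 bases after the start, 5′ to 3′ on the gene's own strand, with the tract in capitals. The tract searched for was a C followed by at least 4 bases that were C or T, on the gene's strand only, beginning within 3 bases of the start. The first 4 genes are ribosomal proteins of the rule, Fau and Eef1b2 are translation genes outside it, and the last 3 are genes outside it that were also higher in the high-share libraries but hold no such tract.
Rps18 (chr20:4933725-4933764, plus strand): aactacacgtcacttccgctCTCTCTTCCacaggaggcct
Rps15 (chr7:10068096-10068135, minus strand): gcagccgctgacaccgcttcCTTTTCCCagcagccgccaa
Rpl19 (chr10:83519044-83519083, plus strand): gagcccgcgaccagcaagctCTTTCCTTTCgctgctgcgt
Rpl37 (chr2:55942925-55942964, plus strand): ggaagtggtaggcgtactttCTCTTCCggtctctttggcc
Fau (chr1:212779493-212779532, plus strand): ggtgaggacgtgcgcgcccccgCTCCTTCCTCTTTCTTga
Eef1b2 (chr9:72074071-72074110, plus strand): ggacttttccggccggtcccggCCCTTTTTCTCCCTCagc
Cox7b (chrX:75149016-75149055, plus strand): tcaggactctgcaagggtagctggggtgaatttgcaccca
Hspe1 (chr9:64084307-64084346, plus strand): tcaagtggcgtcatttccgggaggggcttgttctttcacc
Ostc (chr2:221940234-221940273, minus strand): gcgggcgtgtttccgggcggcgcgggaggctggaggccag

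Of the 67 rows of ribosomal protein genes of the rule that passed the filter on low counts, 56 had a promoter entry and 35 of these (62.5%) held the tract. Of the translation factors with TOP mRNAs, 4 of 16 promoters held it (25%). Fau and Eef1b2 above were picked as examples that hold it, and Cox7b, Hspe1 and Ostc as examples that do not. The same tract stood at 1248 of 10034 promoters of the other genes tested (12.4%), at 6 of 63 promoters of nuclear respiratory chain subunits (9.52%) and at 1 of 27 promoters of proteasome subunits (3.70%). A match is only a match of letters in this window, and no match says nothing more than that.

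The share of ribosomal protein transcripts chose the libraries and is given as a description. It ranged in the high-share libraries from 1.36% to 2.47% (median 1.71%, mean 1.75 ± 0.377%, SD, n = 12). In the low-share libraries it ranged from 0.736% to 0.978% (median 0.775%, mean 0.829 ± 0.0960%, SD, n = 12), and in the 22 others from 0.773% to 1.36% (median 1.07%). The ratio of the geometric means of the classes was 2.08. Males and females differed in the low class, where the 6 male libraries lay between 0.736% and 0.771% and the 6 female libraries between 0.778% and 0.978%; the high classes lay between 1.36% and 2.39% in males and between 1.38% and 2.47% in females. The edges of the classes were narrow in most places. The male library just above the low class had 0.773% against 0.771% inside it, and the one just below the high class had 1.34% against 1.36% inside it. In females the neighbouring values were 1.09% against 0.978% and 1.36% against 1.38%.

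**Figure D1:**
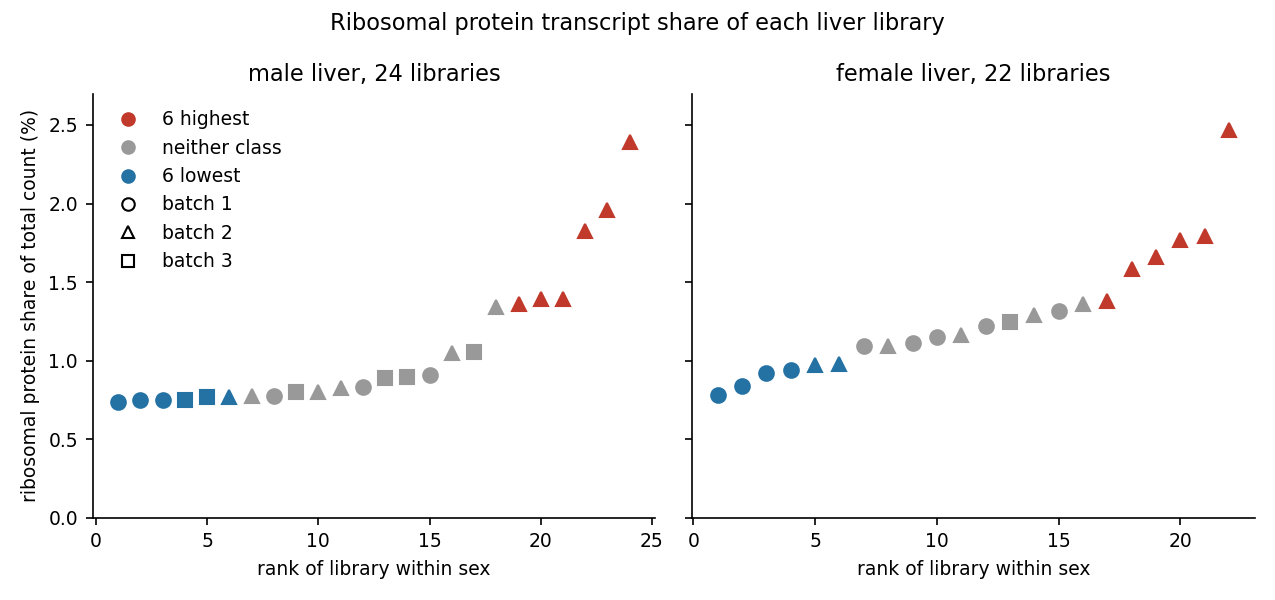
Ribosomal protein share of the total count (y axis, percent) of each of the 46 liver libraries, ranked within males (left) and females (right). Colours mark the class and symbols the batch. All 12 high-share libraries are triangles (batch 2), while the 12 low-share libraries come from batches 1, 2 and 3.

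With the sexes pooled the classes did not follow dose, but they followed batch. The high-share class held 4 libraries of vehicle controls, 3 of 5 mg/kg and 5 of 50 mg/kg, and the low-share class held 4 of each (two-sided Fisher's exact test p = 1, adjusted p = 1 over 3 tests). All 12 high-share libraries were from batch 2, against 7 low-share libraries from batch 1, 3 from batch 2 and 2 from batch 3 (two-sided Fisher's exact test p = 0.000337, adjusted p = 0.00101). The adjusted p was 0.0941 when 11 libraries were taken at each end. The median share was 0.911% over 15 libraries of batch 1, 1.36% over 24 of batch 2 and 0.892% over 7 of batch 3, and batch 2 alone spanned 0.771% to 2.47%. By dose, the median share in males was 1.051% in controls, 0.802% at 5 mg/kg and 0.842% at 50 mg/kg. In females it was 1.095%, 1.337% and 1.269% in the same order. The dosed groups thus had lower medians than controls in males and higher ones in females. Class against dose was not tested within a sex. Library totals ran from 9949274 to 12276353 estimated counts in the high class and from 6153368 to 21314368 in the low class; the mean log2 total differed by -0.10 (two-sided permutation test within sex, p = 0.568, adjusted p = 0.853). Because no high-share library lies outside batch 2, the fitted differences between the classes, which carry a term for batch, rest on the 12 high-share libraries against the 3 low-share libraries of batch 2. Those 3 were a male at 5 mg/kg (replicate 2), a female control (replicate 7) and a female at 50 mg/kg (replicate 5).

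Every difference below between the classes is a description of libraries chosen by their values, given as a log2 difference (high minus low) with its standard error from the edgeR fit. A gene counts as past the threshold at an adjusted p under 0.05. Of the 13063 genes outside the rule, 2470 were past it and higher (18.9%) and 2094 were past it and lower (16%), so a count of members in this contrast is to be read against those shares and supports nothing by itself. The 12 and 12 libraries did not overlap in CPM, the count of a gene scaled to a common library total, for 826 of these genes on the higher side (6.32%) and for 379 on the lower side (2.9%). Upper-quartile scaling turned the split around, to 2242 higher and 2429 lower.

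The contrast of the classes did not use the 22 libraries of neither class or the other tissues. The 22 were still ranked by the rule and are the middle of that ranking, so they are not independent of it. Among those 22, whose shares ran from 0.773% to 1.36%, each gene was tested for a slope on the log2 share, which is the log2 change in its level per doubling of the share, with terms for sex and batch. Of the genes outside the rule 798 rose with the share (6.11%) and 1128 fell (8.64%). This test leaned on a single library: without the male at 5 mg/kg replicate 7, whose share of 1.34% was the highest among the males of neither class, 222 genes rose and 37 fell. With upper-quartile scaling 1250 rose and 913 fell, and the slopes of all genes then had a median of 0.10 instead of -0.02. Within the 9 libraries of batch 2 alone 218 rose and 400 fell, and in the 13 of batches 1 and 3 none passed (956 at an unadjusted p under 0.05). The same slope, with 1 mean for each of the 6 groups and a batch term, was tested in 47 duodenum libraries (share 2.08% to 7.26%), where 21.7% of the genes outside the rule rose and 20.4% fell. In 48 stomach libraries (1.74% to 5.45%) 15.7% rose and 13.7% fell. Share and gene levels come from the same libraries in all of these tests.

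The ribosomal proteins of the rule were higher almost throughout the family, with a spread in size between members. The rule took in 71 rows of the table, of which 67 rows (62 symbols) passed the filter, and all 67 fitted differences were above 0, with a median of 1.11. In 43 of the 67 rows the 12 high-share libraries did not overlap the 12 low-share ones. Since these genes make up the share, no test is given for them.

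Rps18, a protein of the small subunit, had 273 to 820 CPM in the high-share libraries (median 428) and 102 to 157 CPM in the low-share ones (median 125). Rps14, also of the small subunit, had 74.9 to 257 CPM (median 128) against 25.7 to 48.4 CPM (median 33.6). Both sets of values were fully apart, and the fitted differences of 1.80 ± 0.28 and 1.75 ± 0.32 were the largest apart from 1 row of Rpl22 that hardly reached 1 CPM in either class. Among the ribosomal protein genes with the highest mean CPM, Rpl4 of the large subunit had 589 to 1580 CPM (median 936) against 249 to 396 CPM (median 315), a difference of 1.51 ± 0.24. Rpl35 had 482 to 1144 CPM (median 726) against 206 to 318 CPM (median 291), a difference of 1.40 ± 0.22.

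Rpl23a, another abundant large subunit protein, had 465.7 to 954 CPM (median 712) against 271 to 572 CPM (median 440.2), a smaller difference of 0.76 ± 0.19 with libraries of both classes in the shared range. At the lower end Rpl6 had 102 to 187 CPM (median 132) against 82.3 to 125 CPM (median 87.4; 0.56 ± 0.14). Rplp1, a protein of the ribosomal stalk, had 24.8 to 78.1 CPM (median 43.1) against 26.99 to 86.97 CPM (median 44.1); the medians were alike, and the fitted 0.49 ± 0.22 comes from the comparison inside batch 2. Of the pair of rows named Rps13, one had 140 to 292 CPM (median 189) against 57.0 to 101 CPM (median 74.0) and the other 30.4 to 59.5 CPM (median 43.2) against 36.4 to 62.6 CPM (median 45.7). The first row was clear of overlap and the second stood level in both classes, with fitted differences of 1.22 ± 0.21 and 0.04 ± 0.17. Ribosomal protein genes have many near-identical copies, so the counts of single rows are uncertain wherever reads could be shared. The rows named as such copies held 0.560% to 1.09% of the counts in the high-share libraries and 0.261% to 0.405% in the low-share ones, again without overlap.

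**Figure D2:**
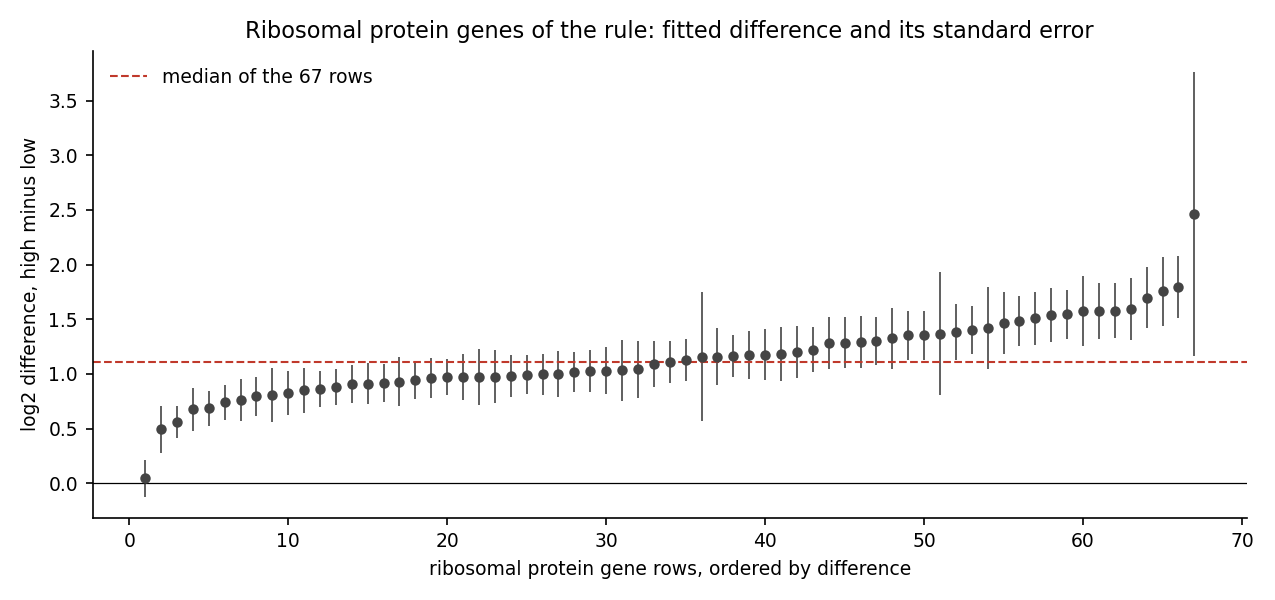
Log2 difference, high minus low, of the 67 ribosomal protein gene rows of the rule, ordered by size; bars are standard errors of the edgeR fit and the dashed line is the median of 1.11. All points lie above 0, from 0.04 for a row of Rps13 to 2.46 for a row of Rpl22 with under 1 CPM on average.

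Ribosomal proteins that the naming rule missed could be tested, and 4 of the 7 measured rose with the share in the libraries of neither class. Over all genes outside the rule 6.11% rose there. Rpsa, the laminin receptor that is also a protein of the small subunit, had 539 to 1226 CPM in the high-share libraries (median 783) and 268 to 419 CPM in the low-share ones (median 334). The classes did not overlap, and the difference was 1.24 ± 0.23. In the 22 libraries of neither class Rpsa rose by 1.05 ± 0.14 per doubling of the share (edgeR adjusted p = 0.000244). Fau, which encodes the precursor of ribosomal protein S30, had 34.3 to 86.4 CPM (median 51.3) against 20.02 to 47.7 CPM (median 27.8), an overlapping range, and rose by 1.13 ± 0.26 per doubling in the 22 libraries (adjusted p = 0.00866). Rack1, a scaffold on the small subunit, had 194 to 443.96 CPM (median 297) against 137 to 174 CPM (median 146), with no overlap. By edgeR it rose by 0.69 ± 0.14 (adjusted p = 0.00457). Slopes of Rps27l (0.56 ± 0.27, adjusted p = 0.165), Rpl7l1 (0.30 ± 0.14, adjusted p = 0.148) and Rps4y2 (0.20 ± 0.70, adjusted p = 0.881) did not pass. The count of 4 was 2 without the male at 5 mg/kg replicate 7, and 6 of 7 rose in duodenum and in stomach, all but Rps4y2.

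Most translation factors with TOP mRNAs were higher as well. Eef1a1, which brings aminoacyl-tRNA to the ribosome, had 4026 to 8298 CPM in the high-share libraries (median 5443) and 2369 to 3568 CPM in the low-share ones (median 3217); the classes were apart, with a difference of 0.75 ± 0.19. Tpt1, the translationally controlled tumour protein, had 1562 to 3288 CPM (median 2089) against 928 to 1545 CPM (median 1288), also apart, with a difference of 0.81 ± 0.16. Eef2, the translocation factor, had 1174 to 1833 CPM (median 1458) against 1261 to 1871 CPM (median 1537), so the classes covered the same range (0.08 ± 0.09).

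Of the 19 measured factors 15 were past the threshold and higher between the classes and none was lower (median 0.60). Over all genes outside the rule 18.9% were higher and 16% lower, and in the 22 libraries 6.11% rose and 8.64% fell. In the 22 libraries of neither class 9 rose and none fell, with a median slope of 0.53 against -0.02 over all genes outside the rule, and 2 rose without the male at 5 mg/kg replicate 7. Eef1b2, the exchange factor for Eef1a1, had the smallest p of all genes named from that test, with a slope of 1.35 ± 0.15 (edgeR adjusted p = 7.14e-05). Tpt1 rose by 0.69 ± 0.16 (adjusted p = 0.00838), whereas Eef1a1 (0.41 ± 0.20, adjusted p = 0.175) and Eef2 (0.15 ± 0.16, adjusted p = 0.564) did not pass. In duodenum 14 of 19 rose, and in stomach 13 rose and 1 fell. Over all genes outside the rule 21.7% rose in duodenum and 15.7% in stomach.

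Factors that assemble ribosomes in the nucleolus differed by tissue in how many moved with the share, a difference that was not tested. Over all genes outside the rule 18.9% were higher and 16% lower between the classes. In the 22 libraries 6.11% of those genes rose and 8.64% fell, and the counts are to be read against these shares. Of 28 measured, 7 were past the threshold and higher and 1 was lower between the classes (median 0.14), and in the 22 libraries 3 rose and none fell (24 of 28 slopes above 0, median 0.29; none passed without the male at 5 mg/kg replicate 7). Nop10, a small protein of the H/ACA particles that modify ribosomal RNA, was the abundant member that differed. It had 67.2 to 143 CPM against 38.2 to 64.2 CPM, without overlap, and its slope was 0.65 ± 0.19 (adjusted p = 0.0253). Ncl, nucleolin, had 129 to 212 CPM (median 177) against 160.01 to 213 CPM (median 195), with a slope of 0.18 ± 0.20 (adjusted p = 0.581). Stomach gave 5 risen and 8 fallen members of this list, and duodenum 14 risen and none fallen. The shares over all genes outside the rule were 15.7% and 13.7% in stomach and 21.7% and 20.4% in duodenum.

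The mitochondrial ribosome, built from proteins encoded in the nucleus, was higher in step with the cytosolic one. Mrpl20 of its large subunit had 80.0 to 201 CPM in the high-share libraries (median 113) and 29.2 to 54.3 CPM in the low-share ones (median 47.9). Mrps7 of its small subunit had 54.7 to 125 CPM (median 71.2) against 28.2 to 45.9 CPM (median 38.97). Neither gene overlapped between the classes. Of 34 members 28 were past the threshold and higher and none lower (median 0.86). Over all genes outside the rule 18.9% were higher and 16% lower, and in the 22 libraries 6.11% rose and 8.64% fell. Outside the classes 17 rose and none fell (median slope 0.68), among them Mrpl20 (0.65 ± 0.19, adjusted p = 0.0266) and Mrps7 (0.52 ± 0.14, adjusted p = 0.0179). Mrpl15, the member with the highest mean CPM, had 118 to 411 CPM against 57.6 to 115 CPM and a slope of 0.38 ± 0.26 that did not pass (adjusted p = 0.348). Without the male at 5 mg/kg replicate 7 the count of risen members was 4, at a median slope of 0.81. The count was 32 of 34 in duodenum and 29 of 34 in stomach, beside 21.7% and 15.7% of all genes outside the rule.

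Nuclear genes of the respiratory chain, the complexes that carry electrons and make ATP in the inner mitochondrial membrane, formed the largest list that moved with the share. Cox7b, a small subunit of cytochrome c oxidase, had 169 to 503 CPM in the high-share libraries (median 261) and 65.0 to 119 CPM in the low-share ones (median 92.1). Cox4i1, a regulatory subunit of the same enzyme, had 451 to 1156 CPM (median 678) against 252 to 320 CPM (median 295). Uqcrh, the hinge protein of complex III, had 203 to 460 CPM (median 291) against 90.7 to 141 CPM (median 118). In each of these genes the lowest high-share library stood above the highest low-share one, and the differences were 1.49 ± 0.22, 1.27 ± 0.24 and 1.24 ± 0.20.

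Of 69 measured subunits 64 were past the threshold and higher, none was lower, and 38 did not overlap between the classes. Over all genes outside the rule 18.9% were higher, 16% were lower and 6.32% were higher without overlap. In the 22 libraries 6.11% of those genes rose and 8.64% fell. Outside the classes 39 of 69 rose and none fell, with a median slope of 0.68, and 18 rose without the male at 5 mg/kg replicate 7 (median 0.75). The slopes were 1.06 ± 0.23 for Cox7b (edgeR adjusted p = 0.00614), 0.96 ± 0.17 for Cox4i1 (adjusted p = 0.00167), 0.86 ± 0.17 for Uqcrh (adjusted p = 0.00343) and 0.71 ± 0.17 for Ndufs3 of complex I (adjusted p = 0.00967). Atp5f1b, the catalytic beta subunit of ATP synthase, is abundant and differed less: it had 953 to 1443 CPM (median 1213) against 723 to 1225 CPM (median 832), and its slope of 0.39 ± 0.16 did not pass (adjusted p = 0.0914). In duodenum 63 of 69 rose and in stomach 62, with none fallen in either. Over all genes outside the rule 21.7% rose in duodenum and 15.7% in stomach.

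The 13 protein-coding genes of mitochondrial DNA went the other way in liver. Together they held 4.01% to 8.25% of the counts in the high-share libraries (median 5.96%) and 5.27% to 10.2% in the low-share ones (median 8.48%), so the classes overlapped. Mt-co1, a core subunit of cytochrome c oxidase, had 10555 to 19005 CPM (median 15073) against 14554 to 21100.1 CPM (median 18781), a difference of -0.35 ± 0.13. Between the classes 8 of 13 were past the threshold and lower (median -0.52), and none were without the male at 5 mg/kg replicate 2. Over all genes outside the rule 16% were lower, and 8.64% fell in the 22 libraries. In duodenum 20.4% of those genes fell, and in stomach 15.7% rose. Outside the classes 4 fell and none rose (median slope -0.48), and none passed without the male at 5 mg/kg replicate 7. In duodenum 4 of 13 fell, while in stomach 9 of 13 rose, a count of 1 with the replicate number as a block. Mt-co1 fell by 0.51 ± 0.13 on the log2 scale per doubling in duodenum (adjusted p = 0.00111). The difference between the tissues was not tested.

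Proteasome subunits, which form the protease that degrades ubiquitin-tagged proteins, were higher too. Psmb7, a catalytic subunit, had 201 to 465 CPM in the high-share libraries (median 264) and 80.3 to 145 CPM in the low-share ones (median 123), with no overlap. Psmd8 of the regulatory lid had 146 to 232 CPM (median 174) against 88.2 to 137 CPM (median 122), also without overlap. Psmc3, an ATPase of the base, overlapped at the edge, with 147 to 233 CPM (median 191) against 121 to 148 CPM (median 141). Of 31 subunits 26 were past the threshold and higher, none was lower, and 23 did not overlap. Over all genes outside the rule 18.9% were higher, 16% were lower and 6.32% were higher without overlap. In the 22 libraries 6.11% of those genes rose and 8.64% fell. Outside the classes 15 of 31 rose and none fell (median slope 0.52), and 9 rose without the male at 5 mg/kg replicate 7. Psmd8 rose by 0.52 ± 0.14 (adjusted p = 0.0200), and the slope of Psmb7, 0.76 ± 0.28, did not pass (adjusted p = 0.0673). In duodenum 28 rose and 1 fell, and in stomach 16 rose and 1 fell. Over all genes outside the rule 21.7% rose in duodenum and 15.7% in stomach.

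**Figure D3:**
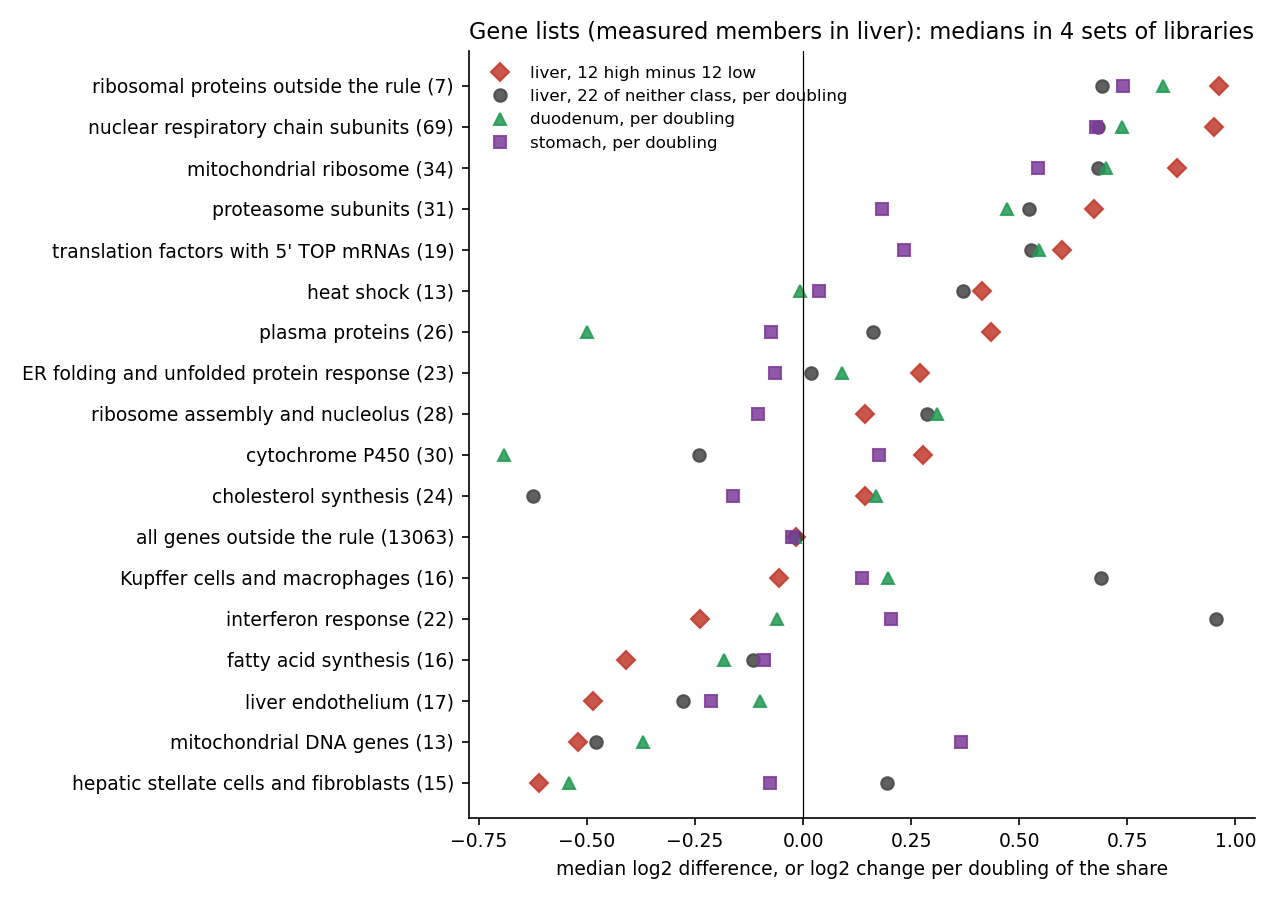
Median of each gene list (y axis, with the number of members measured in liver) as a log2 difference between the classes (diamonds) and as a log2 change per doubling of the share in the 22 liver libraries of neither class (circles), duodenum (triangles) and stomach (squares). The lists of respiratory chain, mitochondrial ribosome, proteasome and ribosomal proteins lie right of 0 in all 4, and mitochondrial DNA genes lie left of 0 except in stomach.

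Ordered by p among genes outside the rule with a mean of at least 5 CPM, the 14 higher genes were Ostc, Cox7b, Ikzf4, Dnajc15, Mrpl57, Ndufs3, Hspe1, Med21, Bphl, Mrpl32, Mpc2, Uqcrh, Smim26 and Chchd1. Most encode small proteins, and many act in mitochondria: Hspe1 is the mitochondrial co-chaperonin, Dnajc15 a co-chaperone of the inner membrane, Mpc2 a subunit of the pyruvate carrier, and Mrpl57, Mrpl32 and Chchd1 belong to the mitochondrial ribosome. Ostc is a subunit of the oligosaccharyltransferase, which adds sugars to proteins in the endoplasmic reticulum, and Med21 is a subunit of the Mediator complex. Hspe1 had 80.0 to 206 CPM in the high-share libraries (median 115) and 35.4 to 55.4 CPM in the low-share ones (median 46.2). Ostc had 72.1 to 194 CPM (median 110) against 31.6 to 62.8 CPM (median 41.2). Mpc2 had 84.4 to 251 CPM (median 134) against 36.7 to 58.1 CPM (median 42.5). The classes were apart in all 3 genes, and the differences were 1.42 ± 0.22, 1.39 ± 0.20 and 1.56 ± 0.25.

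Measured again outside the classes, 13 of these 14 genes rose with the share in the 22 libraries, 13 rose in duodenum and 13 in stomach. The exception in each was Bphl, a serine hydrolase, with slopes of -0.01 ± 0.34, 0.39 ± 0.20 and -0.03 ± 0.20. Hspe1 rose by 1.20 ± 0.20 in the 22 libraries (edgeR adjusted p = 0.00137), Ostc by 1.11 ± 0.25 (adjusted p = 0.00755) and Mpc2 by 1.12 ± 0.26 (adjusted p = 0.00956). Without the male at 5 mg/kg replicate 7, 12 of 14 rose. Ikzf4 encodes a lymphoid transcription factor and stood at 240 to 470 CPM in the high-share libraries, but its RefSeq gene (GRCr8) lies within 5 kb of the ribosomal protein gene Rps26, which has no row of its own in the table, so its value is uncertain. The same holds for Flt3lg and Rpl13a below.

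The 14 lower genes were Dock8, Cenpj, Zfp710, Fnbp4, Lzts3, Ttyh3, Olr59, Ehbp1l1, Traf3ip2, Gse1, Col6a3, Braf, Inpp5f and Col6a1. They range from a guanine nucleotide exchange factor of immune cells (Dock8) and a kinase of the MAPK cascade (Braf) to the collagen VI chains Col6a1 and Col6a3. Dock8 had 14.96 to 28.3 CPM in the high-share libraries (median 22.3) and 36.1 to 46.3 CPM in the low-share ones (median 39.6). Braf had 2.56 to 6.10 CPM (median 3.88) against 6.51 to 9.90 CPM (median 8.43). Col6a1 had 19.5 to 37.7 CPM (median 23.9) against 44.01 to 62.0 CPM (median 47.7). None of the 3 overlapped, with differences of -0.80 ± 0.12, -1.07 ± 0.19 and -0.82 ± 0.15.

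In the 22 libraries all 14 slopes were below 0, 10 of 14 with upper-quartile scaling, and 4 genes fell: Lzts3, Olr59, Traf3ip2 and Braf. Braf fell by 1.21 ± 0.40 on the log2 scale per doubling (edgeR adjusted p = 0.0454) and Traf3ip2, an adaptor of interleukin-17 signalling, by 1.19 ± 0.33 (adjusted p = 0.0199). Traf3ip2 had a slope of 0.092 in batches 1 and 3 alone, and Braf of 0.018. Dock8 (-0.43 ± 0.21, adjusted p = 0.154) and Col6a1 (-0.02 ± 0.20, adjusted p = 0.967) did not pass there. Without the male at 5 mg/kg replicate 7 only 1 of the 14 fell. In duodenum 12 of 14 fell, among them Dock8 by 0.66 ± 0.13 (adjusted p = 8.08e-05) and Col6a1 by 0.68 ± 0.18 (adjusted p = 0.00264), and in stomach 5 fell.

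**Figure D4:**
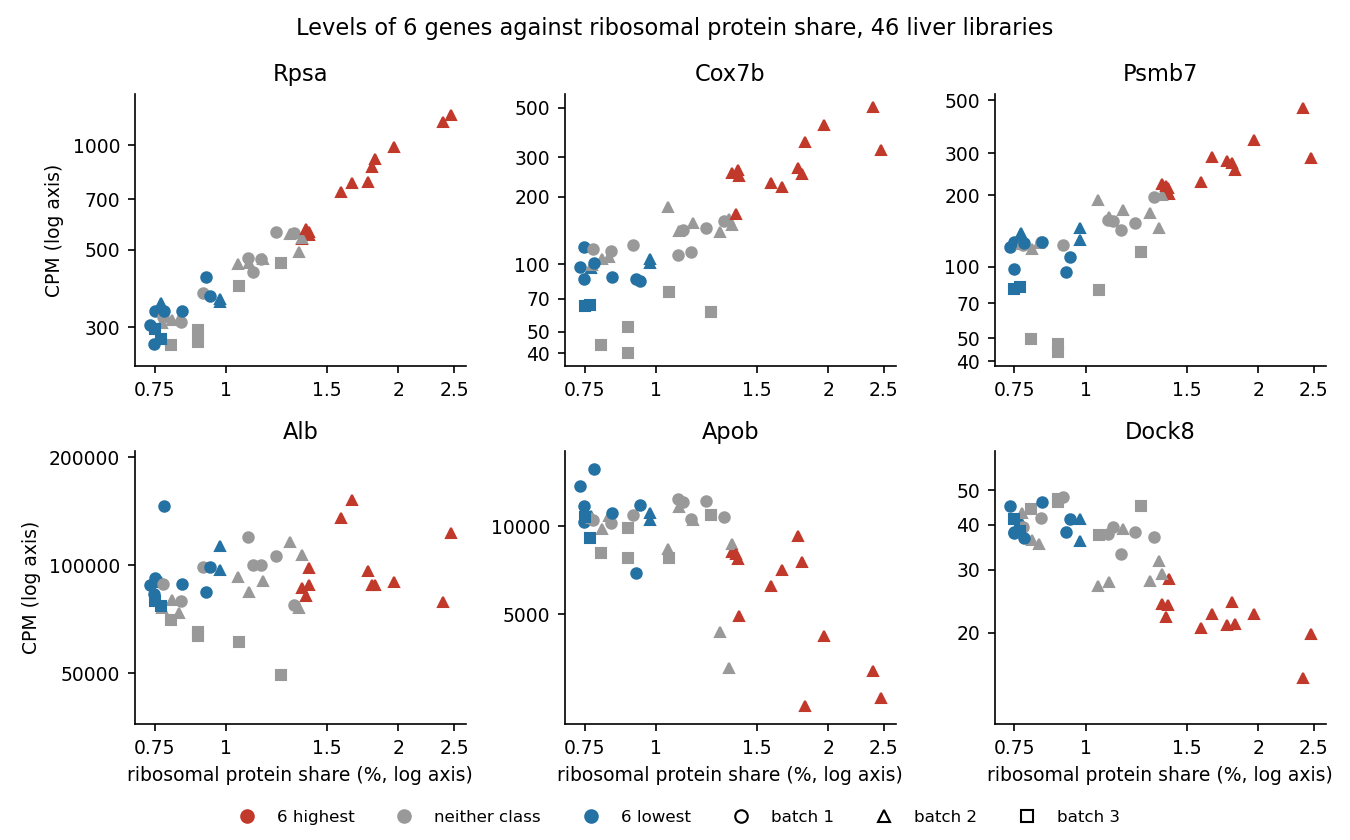
Level of 6 genes (y axis, CPM, log scale) against the ribosomal protein share (x axis, percent, log scale) in the 46 liver libraries, coloured by class with the batch as symbol. Rpsa, Cox7b and Psmb7 are higher at high shares, Alb covers the same range in both classes, and Apob and Dock8 are lower at high shares; the 7 libraries of batch 3 lie at 40.2 to 75.2 CPM for Cox7b, below all others.

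From the test in the 22 libraries, the rising genes outside the rule with the smallest p were Eef1b2, Flt3lg, Faul1, Erh, Rpsa and Tmsb10. Rpsa is itself a ribosomal protein, and Faul1 is named after Fau. Flt3lg lies within 5 kb of Rpl13a, which has no row of its own. These genes are therefore not all apart from the ribosomal proteins. Tmsb10, an actin-sequestering thymosin, rose by 1.35 ± 0.18 (edgeR adjusted p = 0.000244) and Erh, a small RNA-processing protein, by 1.05 ± 0.14 (adjusted p = 0.000150). The falling genes were Pogz, Nfib, Shank2, Esrrg, Fras1 and Ice1. Nfib, a nuclear factor I transcription factor, fell by 1.45 ± 0.23 (adjusted p = 0.000739) and Ice1, a component of the little elongation complex, by 1.01 ± 0.17 (adjusted p = 0.00129). Of these 6, Pogz and Ice1 also fell in both duodenum and stomach. Fras1 hardly reached 1 CPM in most libraries.

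Albumin stood level between the classes, while several other hepatocyte genes were higher in the high-share libraries. Of the 13 hepatocyte markers 6 were past the threshold and higher and 2 lower (median 0.47), and in the 22 libraries 1 rose and 2 fell. Over all genes outside the rule 18.9% were higher and 16% lower, and in the 22 libraries 6.11% rose and 8.64% fell. Albumin (Alb) had 79160.1 to 151767 CPM in the high-share libraries (median 88945) and 76955 to 146058 CPM in the low-share ones (median 89258), with a slope of -0.02 ± 0.26 in the 22 libraries (adjusted p = 0.978). Genes of plasma proteins held 20.7% to 27.1% of the counts in the high class and 21.5% to 27.1% in the low class. A pair of hepatocyte genes fell with the share. Apob, the very long mRNA of apolipoprotein B, had 2422 to 9214 CPM (median 6649) against 6928 to 15644 CPM (median 10928.5), with overlap, and it fell by 1.56 ± 0.38 per doubling in the 22 libraries (adjusted p = 0.0105). Cps1, the first enzyme of the urea cycle, had 1668 to 3802 CPM (median 2694) against 3305 to 4334 CPM (median 3689) and fell by 0.74 ± 0.24 (adjusted p = 0.0391). Of the 26 plasma protein genes 14 were past the threshold and higher and 1 lower between the classes (median 0.43), while 2 rose and 2 fell in the 22 libraries.

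Metabolic and stress lists varied, and their counts are to be read against the shares over all genes outside the rule. Between the classes those were 18.9% higher and 16% lower, and in the 22 libraries 6.11% rose and 8.64% fell. Of 30 cytochrome P450 genes 3 were past the threshold between the classes, all higher, and none passed in the 22 libraries. Of 22 genes of fatty acid oxidation 3 were higher and 1 lower, and 2 fell in the 22 libraries. Cholesterol synthesis had 3 of 24 higher between the classes and 2 fallen in the 22 libraries. Its median slope there was -0.62, against -0.02 over all genes outside the rule. Chaperones of the endoplasmic reticulum had 8 higher and 1 lower of 23, against 3 risen and 4 fallen. Heat shock genes had 6 of 13 higher and none lower, and 2 rose. Of 16 immediate early genes 1 was higher between the classes and none lower. Hspa8, the constitutive cytosolic Hsp70, had 585 to 1082 CPM (median 917) against 406 to 885 CPM (median 559), and its slope of 0.91 ± 0.33 did not pass (adjusted p = 0.0647).

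Markers of stellate cells and endothelium were lower in the high-share libraries. Over all genes outside the rule 16% were past the threshold and lower. Markers of lymphocytes did not share this. Of 9 T and NK cell genes 1 was lower and none higher (median 0.13), and no gene of B and plasma cells passed. The 15 genes of hepatic stellate cells and fibroblasts summed to 282 to 524 CPM in the high class (median 330) and 478 to 759 CPM in the low class (median 581), and 7 were past the threshold and lower with none higher (median -0.61; 3 lower without the female at 50 mg/kg replicate 5). The 17 genes of liver endothelium summed to 357 to 655 CPM (median 530) against 571 to 919 CPM (median 737), with 10 lower and none higher (median -0.49; 2 lower without the female control replicate 7, and likewise without the female at 50 mg/kg replicate 5). Both sums overlapped a little. In these bulk samples fewer cells of a type and less RNA per cell cannot be told apart.

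The libraries of neither class did not repeat this as a group. Among stellate genes 2 fell and 1 rose there, with a median slope of 0.19, and among endothelial genes none passed (median -0.28). Reln, secreted by stellate cells, had 13.9 to 52.2 CPM (median 26.8) against 34.8 to 108 CPM (median 75.3) and fell by 1.56 ± 0.38 in the 22 libraries (adjusted p = 0.0112). Col3a1, fibrillar collagen III, had 86.4 to 262 CPM (median 147) against 146 to 339 CPM (median 214), and its slope there was 0.38 ± 0.28 (adjusted p = 0.375). Kdr, the main receptor for VEGF on endothelium, had 47.8 to 107 CPM (median 70.7) against 66.7 to 136 CPM (median 104), with a slope of -0.34 ± 0.21 (adjusted p = 0.279). In duodenum 9 of the 15 stellate and fibroblast genes fell with the share, beside 20.4% of all genes outside the rule.

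Macrophage genes differed between the 2 ways of looking. Over all genes outside the rule 18.9% were higher and 16% lower between the classes, and in the 22 libraries 6.11% rose and 8.64% fell. Of 16 genes of Kupffer cells and macrophages 6 were lower and 1 higher between the classes (median -0.06), but in the 22 libraries 5 rose and 1 fell (median slope 0.69; none passed without the male at 5 mg/kg replicate 7). C1qa, a chain of complement C1q, had 70.9 to 148 CPM (median 98.04) against 61.0 to 125 CPM (median 79.9) and rose by 1.38 ± 0.26 in the 22 libraries (adjusted p = 0.00318). Clec4f, a lectin of rodent Kupffer cells, had 118 to 283 CPM (median 155) against 94.8 to 268 CPM (median 158) and rose by 0.96 ± 0.32 (adjusted p = 0.0430). Of 22 interferon response genes 3 rose there and none fell (median slope 0.95; none passed without the male at 5 mg/kg replicate 7), against 2 higher and 2 lower between the classes. Other cell types were thin. Of 12 neutrophil genes, 9 stayed under 1 CPM in every liver library, as did 10 of 13 acinar genes and 10 of 14 muscle and fat genes; the acinar list summed to at most 357 CPM in the high class and 361 CPM in the low class. The part of these cell types in the differences between the classes was not tested.

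Genes that span little of the genome were higher in the high-share libraries and long genes were lower. The span, from the first to the last base of the gene in RefSeq (GRCr8) with introns, was found by symbol for 12075 of the 13063 genes outside the rule (92.4%), and the comparison was chosen after the data had been seen. In the shortest quintile, with a median span of 4.57 kb, the median slope in the 22 libraries was 0.38 per doubling, and 16.5% of the genes rose while 0.870% fell. In the longest quintile, with a median of 127 kb, the median slope was -0.51, and 0.911% rose while 23.4% fell. The quintiles between followed in order, with medians of 0.16, -0.02 and -0.25. The differences between the classes ran alike, from 0.36 in the shortest to -0.41 in the longest quintile.

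Across genes, Spearman's rho between span and slope was -0.463 in the 22 libraries (n = 12075 genes), -0.401 in duodenum (n = 13676) and -0.372 in stomach (n = 13823). Genes share the libraries and their depth and are not independent replicates. Between span and mean level in liver rho was 0.00869. Without the male at 5 mg/kg replicate 7 rho in the 22 libraries was -0.334, and in batches 1 and 3 alone it was -0.117. Median spans were 3.13 kb for the ribosomal proteins of the rule, 5.41 kb for the mitochondrial ribosome, 7.18 kb for the respiratory chain and 11.02 kb for the proteasome, beside 34.9 kb for stellate cell and 39.1 kb for endothelial genes and 25.1 kb over all genes outside the rule. Lists of short genes varied in their median slope in the 22 libraries, which was 0.38 in the shortest quintile. Acute phase genes (median span 7.56 kb) had -0.20, and plasma protein genes (8.40 kb) had 0.16 with 2 risen and 2 fallen. Immediate early genes (3.43 kb) had 0.21, with 2 of 16 risen and 0 fallen. The median slope was 0.37 for heat shock genes (6.08 kb), 0.52 for amino acid stress genes (5.6 kb) and 0.95 for interferon response genes (8.42 kb).

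**Figure D5:**
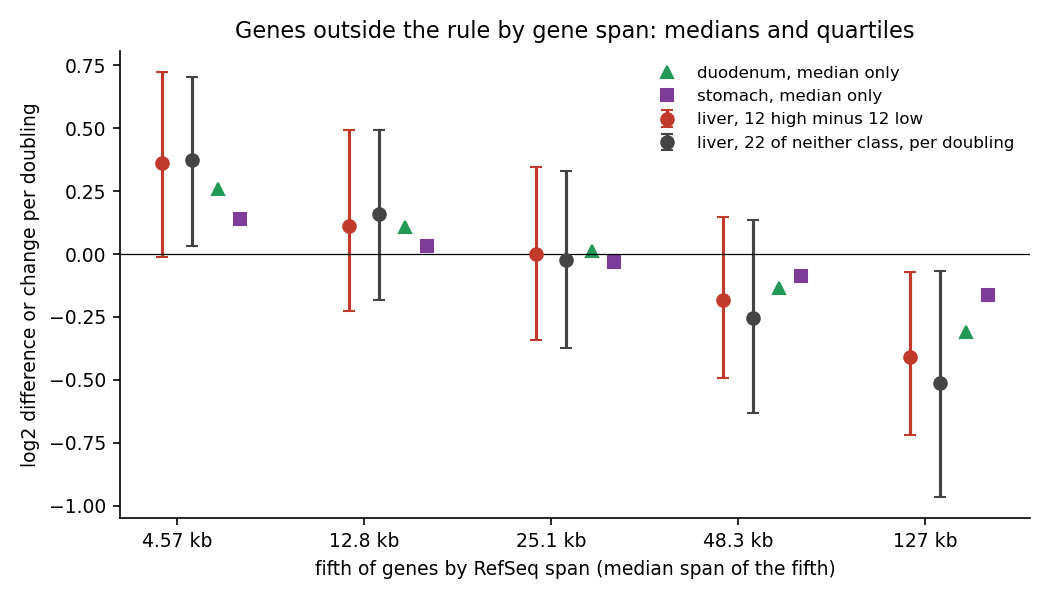
Genes outside the rule in quintiles of RefSeq span (x axis, median span of each quintile): median and quartiles of the log2 difference between the classes (red) and of the log2 change per doubling of the share in the 22 liver libraries of neither class (grey), with medians in duodenum and stomach. Medians go from above 0 in the shortest quintile to below 0 in the longest in all 4 sets.

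The pyrimidine tract at the start, shown above for Rps18 and the others, made no such order among genes outside the rule. The 1248 genes with the tract had a median slope of -0.00 in the 22 libraries and 8786 genes without it of -0.02. Of those with the tract 6.09% rose and 9.38% fell, and of those without it 6.46% rose and 8.96% fell. The search found the tract at only 4 of 16 promoters of translation factors with TOP mRNAs. The comparison therefore cannot show whether TOP mRNAs followed the share. Fau and Eef1b2, with tracts of 16 and 15 bases, rose with the share, and so did Cox7b, Hspe1 and Ostc, whose windows hold none. All of these were picked as examples. Of the same 14 higher genes, Med21, Mpc2 and Uqcrh each held a tract of 5 bases, while Bphl, Chchd1, Mrpl32, Mrpl57 and Ndufs3 held none. The definition of the tract was settled after a wider and several narrower windows had been looked at.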

How the data were processed

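Estimated counts per gene, which need not be whole, were deposited by the authors as 1 table per tissue. The submitters' processing notes list STAR 2.7.11b, Salmon 1.10.3 and UMI-tools 1.1.5, and the build mRatBN7.2. The order of the steps, the annotation release, strand use and any collapsing of molecular identifiers were not given in the sources used here. The deposited transcript tables were not used here.

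Estimated counts were rounded (at most 0.000422% of a total), filtered with filterByExpr (minimum count 10, total 15), scaled by TMM and tested with edgeR 4.0.16's quasi-likelihood test in R 4.3.3, with Benjamini-Hochberg adjustment over all genes of a tissue (13130 in liver). CPM of a single gene is its count over the library total of the filtered genes after TMM scaling. The median TMM factor was 0.930 in the high-share and 1.03 in the low-share libraries. Sums over a list, and genes said to stay under 1 CPM in every library, use the whole library total without TMM instead. A standard error is the coefficient over the square root of F. The high against low fit had terms for sex and batch, as had the slope among the libraries of neither class; duodenum and stomach had group and batch.

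The members and gene lists were chosen with earlier results of these data known. Named were, outside the rule and with a mean of at least 5 CPM, the 14 genes each way with the smallest p between the classes, the 3 members with the highest mean CPM of each of 40 lists, all 7 measured ribosomal proteins outside the rule, the 3 largest, 3 smallest and 3 most abundant inside it, and 6 genes each way from the test among the libraries of neither class. The text prints those it describes, and a few named genes are not reported here. The tract, the gene span, the fits within batches and the fit of all 46 libraries were chosen after seeing the data. Simulated liver counts with 200 changed genes were tested first: the high against low fit recovered 58 of 100 at a log2 change of 1, and the slope 32 of 100, on 13130 genes. The simulated counts had no effect of sex or batch, and far fewer genes changed than passed in the data. Recovery in the real fits may therefore differ.

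Precision is limited by depth for genes of few counts. Alternatives were other scalings and filters, DESeq2 1.42.0, other class sizes, the replicate number as a block, the batch term, and each library left out.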

Additional observations from a re-analysis of the deposited data

Results flagged for a closer look

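In groups of 6 or 8 libraries, 5 values stood far from the rest of their group; chance alone marks about 1 in 20 groups. The ribosomal protein share was 1.59% in the female control replicate 4, with the next at 1.16%. It was 2.39% in the male at 50 mg/kg replicate 6, with the next at 1.40%. In the male at 5 mg/kg replicate 7 it was 1.34%, with the next at 0.892%. The first 2 belong to the high-share class, and the third is the library of neither class without which the slope test passed 259 genes. The library total was 23717000 estimated counts in the female at 50 mg/kg replicate 4, with the next at 10918800, and 20743100 in the male control replicate 8, with the next at 12276400. Both of these libraries were of batch 3, where liver totals went down to 10207855. Also of batch 3 were the males at 50 mg/kg replicates 5 and 7, with totals of 21314368 and 20764969.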

How the results depend on the processing

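Between the classes 4564 genes outside the rule were past the threshold. This count stayed within 1.5 times under DESeq2's size factors, upper-quartile scaling, totals without ribosomal protein genes, no filter on low counts, DESeq2, a dose term, the replicate block (5210), batch 2 alone and 11 libraries at each end. It was 8144 with no batch term. Leaving out each library gave 1938 (without the male at 5 mg/kg replicate 2) to 4996, with 3023 without the female control replicate 7 and 3012 without the female at 50 mg/kg replicate 5. With 4 libraries at each end the fit could not be made, since no low-share library was then in batch 2. With 11 at each end the adjusted p of class against batch was 0.0941.

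In the libraries of neither class 1926 genes passed. The count was 1035 with no batch term, 427 with the replicate block, 618 in batch 2 alone, 0 in batch 1 alone (750 at an unadjusted p under 0.05) and 0 in batches 1 and 3 (956), where fewer libraries entered. All 46 liver libraries gave 8375, but these include those that defined the classes. Leaving out each library gave 259 to 2252, the lowest without the male at 5 mg/kg replicate 7, where 217 of the 259 were shared. In stomach 4432 genes passed, and 2462 with the replicate block; in duodenum the block gave 5957 against 6363. The labels do not say that equal replicate numbers pair libraries. Deviations of libraries with the same number had a mean correlation of -0.0032, against 0.0059 for other numbers, so the block is only an alternative. Under it 8 of the 14 higher and none of the 14 lower named genes passed in the libraries of neither class.

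Of 5355 values of named genes in the libraries of neither class 15 turned sign where the slope passed the threshold in the main or the alternative setting, and 343 others turned sign with neither past it. Of the 15, in batch 1 alone the slopes were -0.13 for Psmb8, 0.12 for Reln, -0.54 for Prf1 and 0.90 for Traf3ip2. In batches 1 and 3 they were 0.092 for Traf3ip2 and 0.018 for Braf. Over all 46 libraries they were -0.18 for Ncl, -0.43 for Mt-co2, -0.18 for Hspd1, -0.41 for Fads2, 0.18 for Acadm, 0.33 for Crp, -0.30 for Col3a1, -0.37 for Cd4 and 0.62 for Bphl. Between the classes no difference past the threshold turned sign, over 5740 values. The cause was not tested.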

Other observations

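Some genes of the lists, not described above, also moved with the share outside the classes. Rpph1, the RNA subunit of RNase P, had 4.55 to 17.4 CPM in the high-share libraries (median 9.20) and 1.06 to 4.68 CPM in the low-share ones (median 3.00), an overlap of the edges only. It rose by 2.05 ± 0.42 per doubling in the 22 libraries of neither class (edgeR adjusted p = 0.00475), and it rose in duodenum and stomach. Psmb8, an immunoproteasome subunit induced by interferon, had 51.4 to 183 CPM against 36.9 to 101 CPM and rose by 1.21 ± 0.28 (adjusted p = 0.00815). Clock, a core transcription factor of the circadian clock, had 20.6 to 67.3 CPM (median 53.2) against 53.5 to 85.02 CPM (median 69.3) and fell by 1.32 ± 0.36 (adjusted p = 0.0186); it was 1 of 17 clock genes to fall there, and none rose.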
